A study of Homo sapiens with 4 samples.

Results

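The DNA replication machinery is described here through 44 genes, chosen by name with earlier results of these data known. Their roles are origin licensing, the replicative helicase, origin firing, the polymerases, the sliding clamp, strand processing, nucleotide supply and E2F-driven entry into S phase. Shares of members set beside all genes are therefore descriptions and not tests of the list. All 44 were among the 25343 gene rows of both expression tables, and all had a mean of at least 1 CPM (read counts set relative to library size, here with TMM scaling, which adjusts for a few genes taking many reads) in each, as did 13114 genes in all. The lowest member mean was 5.15 CPM. The tables hold RNA sequencing of 4 libraries, 1 in each of 4 groups, from a pair of human prostate carcinoma lines in which MAOA, the gene for monoamine oxidase A, was knocked down. The C4-2B ENZR cells, resistant to the androgen receptor blocker enzalutamide, were kept in 20 µM of it. For LNCaP, an androgen-responsive line, the labels name no enzalutamide. Both grew in medium with 10% fetal bovine serum. In each line the control carried a hairpin with no target and the knockdown carried one aimed at the MAOA coding sequence, delivered by lentivirus and kept by antibiotic selection, so all 4 groups are stably transduced. Nothing in the labels says whether both lines carried the same MAOA hairpin, or whether the libraries came from more than 1 culture.

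Replication starts when the origin recognition complex, CDC6 and CDT1 load the ring-shaped MCM helicase onto DNA in G1, and it fires when kinases recruit CDC45 and the GINS complex to that ring. Polymerase alpha with primase then lays down primers, the RFC loader places the PCNA clamp, and polymerases delta and epsilon copy the strands, while FEN1 and LIG1 join the pieces of the lagging strand. Many of these genes are transcribed in late G1 and S phase under E2F factors, and their RNA levels are used as marks of proliferating tumour cells. In bulk RNA of this kind, fewer cells in S phase and less RNA per cell cannot be told apart.

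MAOA itself was measured at 327 CPM in the C4-2B ENZR control and 219 CPM in its knockdown, 66.8% of control. In LNCaP it was at 445 and 139.5 CPM, 31.3% of control. The targeted RNA was thus lower in both knockdown libraries, with more of it left in C4-2B ENZR, and the part of this gap in any difference between the lines was not tested. Libraries held 23479051 to 52550452 reads. As deposited, the median log2 ratio of well-expressed genes (mean of at least 10 CPM) was 0.13 for LNCaP and -0.01 for C4-2B ENZR, so LNCaP ratios are given as deposited and, where it matters, also centred on that median. The 8 markers of prostate luminal epithelium were all present, summing to 3388 and 3362 CPM in C4-2B ENZR control and knockdown and to 6053 and 6447 CPM in LNCaP, although KLK3 alone had 3.72 and 6.34 CPM for C4-2B ENZR. Over the 4 libraries, 3 basal epithelial markers summed to 0.0404 to 1.15 CPM, 3 endothelial markers to 3.62 to 17.5 and 5 fibroblast markers to 47.4 to 62.9 (mostly COL1A1), with COL1A2 at 0 throughout. Of single leukocyte genes, CD3E was at 0 in all 4 libraries, PTPRC had at most 0.202 CPM, and CD68 had 9.87 and 11.1 CPM for C4-2B ENZR control and knockdown, then 17.1 and 24.8 CPM for LNCaP. The part of these cells in the results was not tested. Line, library-name suffix and separate table normalisation cannot be told apart, and each ratio below was taken within a line.

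The 44 replication genes were mostly lower after the knockdown in both lines. The median log2 ratio of knockdown over control (each CPM plus 1) stood at -0.16 (C4-2B ENZR) and -0.33 (LNCaP), beside 0.00 and 0.11 over all 13114 genes, and the centred LNCaP median was -0.47. In C4-2B ENZR 39 of 44 members had a ratio below 0, where 49.6% of all genes did, and in LNCaP 40 of 44 did, where 33.4% of all genes did. Both ratios were below 0 for 36 members, beside 23.2% of all genes, and above 0 for 1, CCNE1, beside 40.0%. The 44 genes together summed to 4982 CPM in the C4-2B ENZR control and 4267 in its knockdown, and to 2878 and 2296 CPM in LNCaP. These sums weigh the abundant MCM genes most.

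The test over both lines took the 2 within-line ratios as replicates in limma with Benjamini-Hochberg adjustment over all 13114 genes. It called 8 of the 44 members lower (18.2%) at an adjusted p of 0.05, where 1.49% of all genes were called lower, and those members were PCNA, MCM5, PRIM2, UHRF1, MCM4, MCM7, FEN1 and RFC5. No member was called higher, where 4.22% of all genes were, and none passed on the higher side with edgeR and recomputed TMM (1.33% of genes) or DESeq2 (0.999%). None reached an unadjusted limma p under 0.05 on the higher side, where 13.8% of all genes did, and 20 did on the lower side, where 5.39% did. With the ratios centred, 18 members were called lower (40.9%), where 4.14% of all genes were. With edgeR on recovered reads and recomputed TMM scaling the calls numbered 5, beside 0.976% of genes: PCNA, MCM5, UHRF1, FEN1 and TYMS. With 1 residual degree of freedom the errors rest on spread pooled over genes, and an exact sign-flip test of a gene over 2 lines could not go below p = 0.5.

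**Figure D1:**
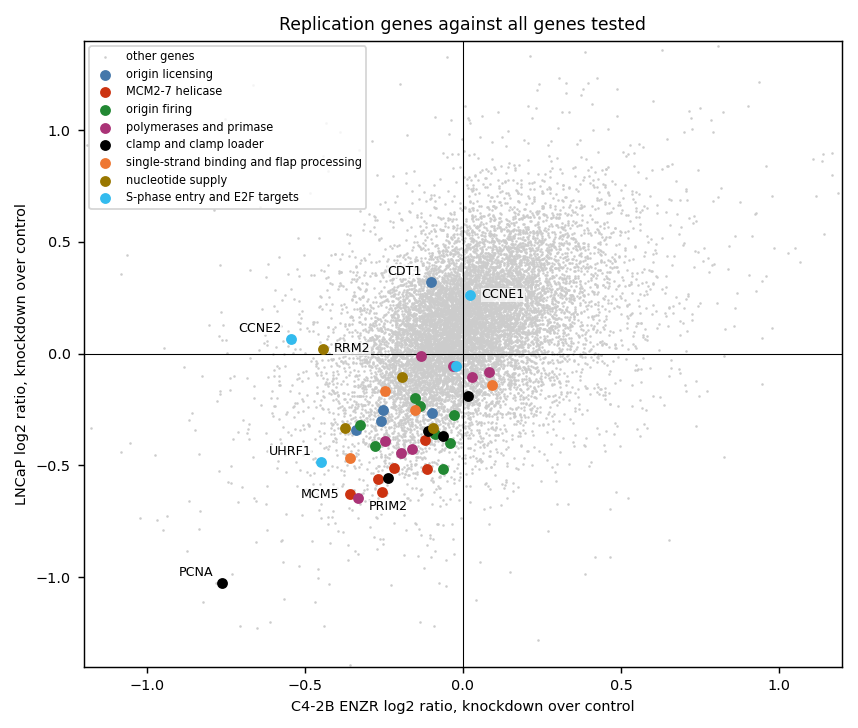
Log2 ratio of knockdown over control in C4-2B ENZR (horizontal) against LNCaP (vertical) for each of the 44 replication genes, coloured by role, and for all other genes tested (grey). Most coloured points lie in the lower left quadrant, with PCNA farthest out at -0.76 and -1.03, while CDT1, CCNE1, CCNE2 and RRM2 lie above 0 in LNCaP; 43 other genes lie outside the axes.

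Counting error was small beside many of these ratios. The exact 95% interval of a ratio, which covers the counting of reads only, lay below 0 for 30 members in C4-2B ENZR (21.7% of all genes) and for 37 in LNCaP (19.2% of all genes). It lay below 0 in both lines for 26 members, beside 9.52% of all genes. No member lay above 0 by its interval in C4-2B ENZR, where 21.5% of genes did, and CDT1 and CCNE1 did in LNCaP, where 49.1% of genes did. With 1 library a group no p-value was given within a line, so a fold of 1.3 was used to describe sizes. In C4-2B ENZR 4 members were past it on the lower side (PCNA, CCNE2, UHRF1 and RRM2), where 3.53% of all genes were. In LNCaP 17 were, where 5.05% of genes were, and 29 were after centring, where 10.7% were. PCNA and UHRF1 were past it in both lines, beside 0.862% of genes.

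**Figure D2:**
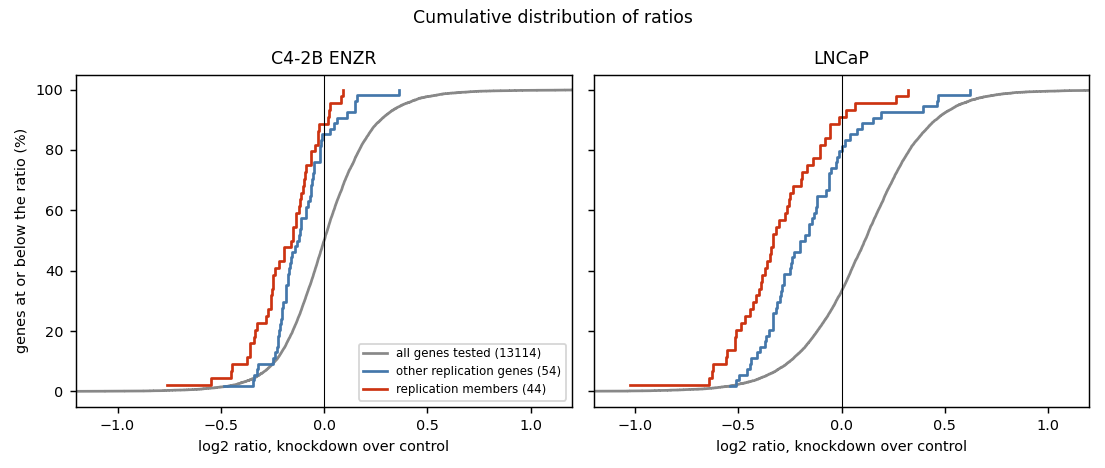
Cumulative share of genes (percent, vertical) at or below each log2 ratio of knockdown over control (horizontal) in C4-2B ENZR and LNCaP, for the 44 replication genes, 54 other replication genes and all 13114 genes tested. The members' curve lies to the left of all genes in both lines, with medians of -0.16 and -0.33 beside 0.00 and 0.11.

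Since E2F factors act through a short promoter element, the promoters of the members were read for it. RefSeq windows on GRCh38.p14, of 250 bases before to 50 bases after a start site, were found for 37 of the 44 members, and MCM4, MCM5, GINS4, POLD3, RPA2, RPA3 and CCNE2 had no entry. The motif was any of TTTCCCGC, TTTGGCGC, TTTCGCGC or TTTGCCGC on either strand. It was found for 21 of 37 members (56.8%), where 3.99% of 27305 genes with such windows held it. E2F targets were among the roles the list was chosen for, and the 27305 genes were not limited to expressed ones. These shares are therefore no test. The 4 sequences printed here are the 250 bases before a start site, 5′ to 3′ on the gene's strand. They are from the 3 members that fell and held a match, and from E2F1. The last was added after its values were seen, because it held matches and had ratios near 0 as deposited. Capitals mark the motif matches.
PCNA: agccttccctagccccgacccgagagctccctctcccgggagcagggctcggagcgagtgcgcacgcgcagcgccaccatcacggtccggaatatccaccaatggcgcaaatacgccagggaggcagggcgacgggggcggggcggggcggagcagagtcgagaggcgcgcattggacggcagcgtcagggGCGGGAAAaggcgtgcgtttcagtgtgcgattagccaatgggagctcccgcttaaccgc
UHRF1: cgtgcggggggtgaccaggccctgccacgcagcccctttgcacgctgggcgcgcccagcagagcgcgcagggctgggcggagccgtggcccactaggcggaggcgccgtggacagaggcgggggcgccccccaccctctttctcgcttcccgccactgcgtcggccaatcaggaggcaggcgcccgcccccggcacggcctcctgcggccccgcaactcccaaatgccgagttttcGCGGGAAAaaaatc
MCM7: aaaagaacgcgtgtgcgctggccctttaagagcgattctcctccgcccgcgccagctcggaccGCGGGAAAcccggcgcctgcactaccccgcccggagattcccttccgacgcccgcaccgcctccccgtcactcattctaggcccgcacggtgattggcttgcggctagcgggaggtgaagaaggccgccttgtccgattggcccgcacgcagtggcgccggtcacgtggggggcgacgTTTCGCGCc
E2F1: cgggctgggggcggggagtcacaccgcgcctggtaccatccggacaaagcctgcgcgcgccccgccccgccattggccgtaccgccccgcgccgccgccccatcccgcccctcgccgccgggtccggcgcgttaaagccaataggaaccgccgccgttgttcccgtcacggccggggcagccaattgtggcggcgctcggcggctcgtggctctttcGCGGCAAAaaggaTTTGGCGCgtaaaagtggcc
The PCNA sequence is chr20:5126623-5126872 on the minus strand, with its match starting 59 bases before the start site. The UHRF1 sequence is chr19:4909251-4909500 on the plus strand, and its match starts 14 bases before the start site. The MCM7 sequence is chr7:100101398-100101647 on the minus strand, with matches starting 187 and 9 bases before it. The E2F1 sequence is chr20:33686386-33686635 on the minus strand, and it holds matches starting 33 and 20 bases before it. A match to these letters is a description of the window and not evidence of binding.

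The members with a motif match and those without had similar median ratios, a comparison that was not tested. The 21 with a match had median log2 ratios of -0.15 in C4-2B ENZR and -0.35 in LNCaP, and 3 of them fell (PCNA, UHRF1 and MCM7). The 16 without had medians of -0.16 and -0.29, and 3 of them fell (PRIM2, FEN1 and RFC5). The ratios of the matched members ran from -0.76 to 0.03 in C4-2B ENZR and from -1.03 to 0.32 in LNCaP. Of the 30 matches, 19 started within the 100 bases before a start site. Matches that overlap each other, as in MCM2 and MCM6, were counted separately.

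**Figure D3:**
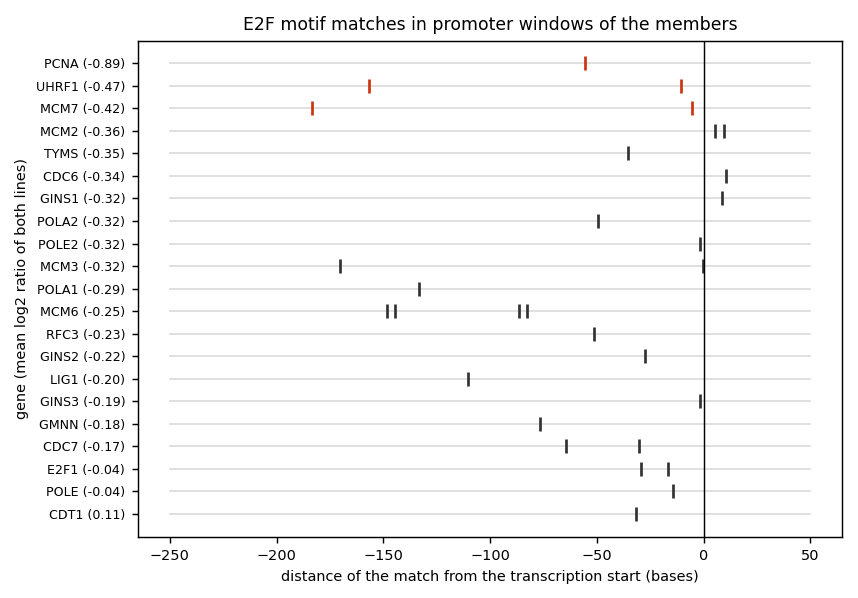
Centre of each E2F motif match, in bases from the start site (horizontal, 0 is the start site), in the promoter windows of the 21 members that hold one (vertical), with windows of several start sites of a gene drawn together. The mean log2 ratio stands beside each name, and red marks members that fell. Of the 30 matches, 19 start within the 100 bases before the start site.

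Origin licensing genes had median ratios of -0.25 in C4-2B ENZR and -0.27 in LNCaP, and none of the 5 passed the limma test. ORC1, the subunit of the origin recognition complex that comes and goes with the cell cycle, had 60.8 and 50.9 CPM for C4-2B ENZR control and knockdown, against 20.5 and 17.0 CPM for LNCaP, a ratio of -0.25 in each. ORC6, its smallest subunit, was at 45.0 and 37.4 CPM (-0.26), then 32.5 and 26.2 CPM (-0.30). CDC6, the ATPase that works with the complex to load the helicase, was at 158 and 125 CPM, then 49.1 and 38.5 CPM, -0.34 in both lines, which gave a mean of -0.34 (SE 0.12, limma adjusted p = 0.0804). As deposited these 3 had like ratios in both lines, but centred they were -0.25, -0.25 and -0.33 for C4-2B ENZR against -0.39, -0.44 and -0.48 for LNCaP. Geminin (GMNN), the inhibitor that holds CDT1 in check after S phase starts, had 35.2 and 32.8 CPM (-0.10) for C4-2B ENZR, then 22.1 and 18.2 CPM (-0.27) for LNCaP. CDT1, the loader that geminin binds, went from 93.3 to 86.9 CPM with the knockdown of C4-2B ENZR (-0.10, counting interval -0.19 to -0.02) but from 109 to 136 CPM with that of LNCaP (0.32, interval 0.27 to 0.37). It was the member with the most positive LNCaP ratio, its centred LNCaP ratio was 0.19, and the mean over lines of 0.11 (SE 0.12, limma adjusted p = 0.702) did not pass.

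The 6 subunits of the MCM helicase all had lower CPM in the knockdown of both lines, with lower ratios in LNCaP. Their median ratios were -0.24 in C4-2B ENZR and -0.54 in LNCaP, 3 of the 6 fell, and all 6 were past 1.3-fold in LNCaP while none was in C4-2B ENZR. The difference between lines has no replicate and was not tested. MCM5 had 149 and 117 CPM for C4-2B ENZR control and knockdown, against 79.0 and 50.8 CPM for LNCaP, and it fell by 0.49 on the log2 scale (SE 0.12, limma adjusted p = 0.00415, 8.4e-05 to 0.169 over 10 alternatives). MCM4 was at 364 and 305 CPM, then at 175 and 113 CPM, and it fell by 0.44 (SE 0.13, limma adjusted p = 0.0216). MCM7 was at 395 and 328 CPM, then at 229.9 and 156 CPM, and it fell by 0.42 (SE 0.13, limma adjusted p = 0.0382). MCM4 and MCM7 did not pass edgeR with recomputed TMM (adjusted p = 0.0538 and 0.0536), and over all 10 alternatives their adjusted p ran from 0.000237 to 0.254 and from 0.000415 to 0.278. The mean ratios of all 3 stayed below 0 under the pseudocount and scaling alternatives, but this was fixed beforehand. A pseudocount cannot change the sign of a ratio, and both rescalings moved the means down. MCM2 was at 388 and 333 CPM (-0.22), then 194 and 136 CPM (-0.51), with a limma adjusted p of 0.0788. MCM3 was at 179.9 and 166 CPM (-0.11), then 161 and 112 CPM (-0.52). MCM6 was at 153 and 140.1 CPM (-0.12), then 53.4 and 40.6 CPM (-0.39), the subunit with the mean ratio nearest 0, at -0.25 (SE 0.12, limma adjusted p = 0.232). The subunits that did not pass had C4-2B ENZR ratios of -0.22 or nearer 0.

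Although the ring holds 1 copy of each subunit, their RNA levels differed. Per kilobase of transcript, the C4-2B ENZR control had 134 CPM per kb of MCM7, 107 of MCM2, 87.1 of MCM4, 56.1 of MCM3, 42.3 of MCM5 and 40.8 of MCM6. The LNCaP control had 77.8 of MCM7, 53.7 of MCM2, 50.3 of MCM3, 41.8 of MCM4, 22.4 of MCM5 and 14.3 of MCM6. MCM7 was highest and MCM6 lowest in both lines, and MCM3 and MCM4 changed places between them. In the LNCaP knockdown the range was 52.6 (MCM7) to 10.9 (MCM6) CPM per kb.

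**Figure D4:**
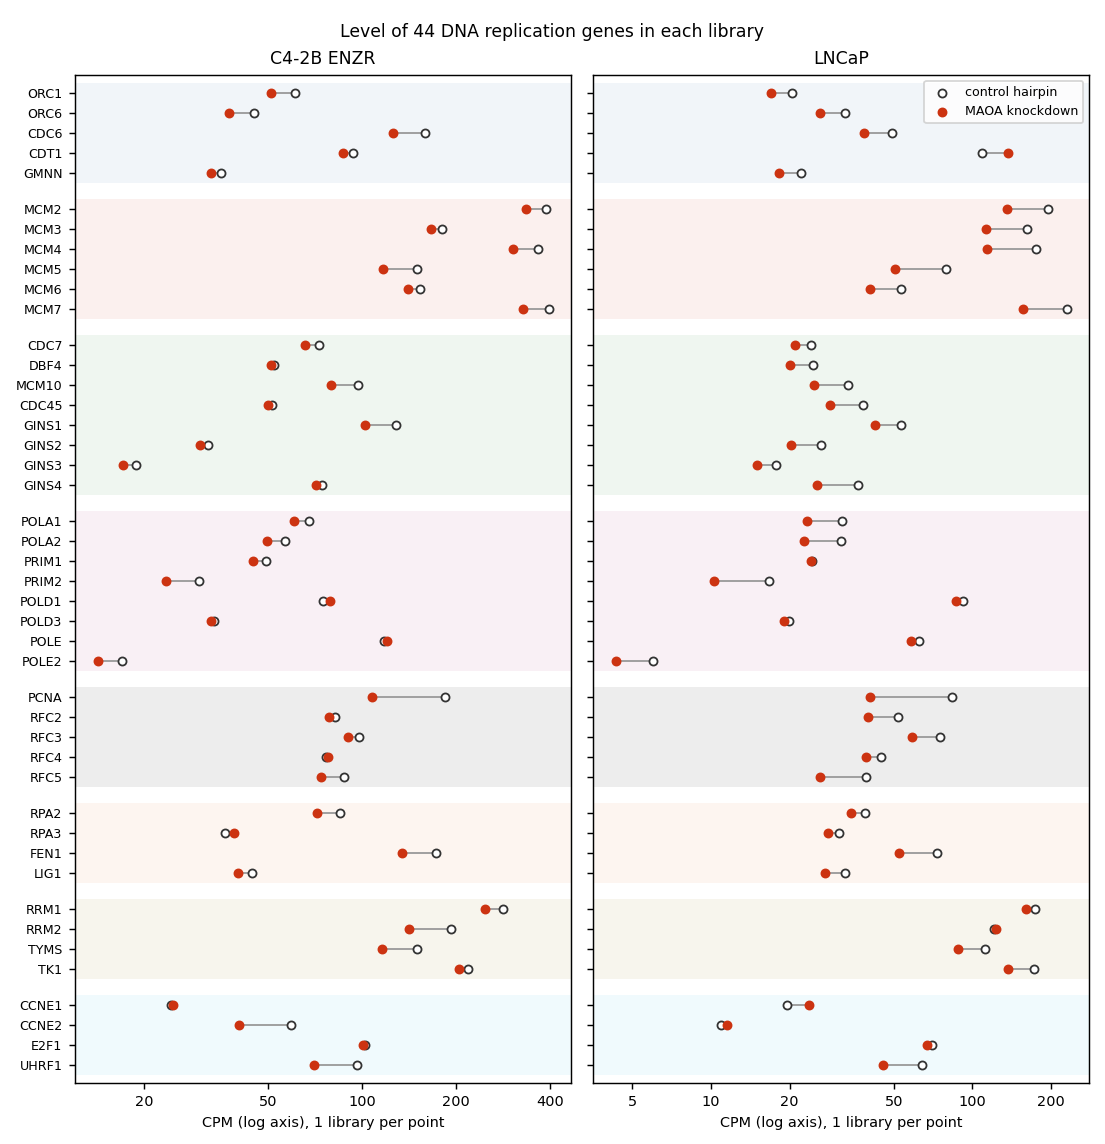
CPM on a log axis (horizontal) in control and knockdown libraries of C4-2B ENZR and LNCaP for each of the 44 replication genes (vertical), grouped by role, with a line joining the 2 libraries of a gene. The MCM genes and PCNA show the knockdown point to the left of the control point in both lines, as with PCNA at 183 against 108 CPM and 83.8 against 40.7 CPM.

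Origin firing factors had ratios below 0 for all 8 members in both lines, with medians of -0.11 and -0.34, yet none passed the limma test. MCM10, a scaffold that helps to activate the loaded helicase, had 96.5 and 79.3 CPM (C4-2B ENZR), then 33.4 and 24.8 CPM (LNCaP). It had the lowest mean of the 8 at -0.35 (SE 0.13, limma adjusted p = 0.0824). GINS1 was at 128 and 102 CPM (-0.33), then 53.3 and 42.5 CPM (-0.32). For the other GINS subunits the C4-2B ENZR counting intervals all reached 0, and a difference from GINS1 was not tested. GINS2 was at 32.1 and 30.1 CPM (-0.09), then 26.3 and 20.3 CPM (-0.36). GINS3 was at 18.9 and 17.1 CPM (-0.14), then 17.8 and 14.96 CPM (-0.23). GINS4 was at 74.0 and 70.9 CPM (-0.06), then 36.6 and 25.3 CPM (-0.51). CDC45, the third component of the active helicase, had a pattern like that of GINS4. It had 51.5 and 50.0 CPM (-0.04) for C4-2B ENZR, then 38.0 and 28.5 CPM (-0.40) for LNCaP. CDC7, the kinase that phosphorylates the MCM ring, was at 72.8 and 65.4 CPM (-0.15), then 24.1 and 20.9 CPM (-0.20). DBF4, the subunit that activates CDC7, was at 52.1 and 51.0 CPM (-0.03), then 24.6 and 20.1 CPM (-0.28), and had the mean nearest 0 of the 8, at -0.15 (SE 0.13, limma adjusted p = 0.59).

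Of the 8 polymerase and primase genes, PRIM2 alone fell, and the group had median ratios of -0.15 in C4-2B ENZR and -0.25 in LNCaP. PRIM2, the large primase subunit, had 30.0 and 23.6 CPM (C4-2B ENZR), then 16.7 and 10.3 CPM (LNCaP), and it fell by 0.49 (SE 0.14, limma adjusted p = 0.0214). Its adjusted p was 0.0556 with edgeR and recomputed TMM and ran from 0.00472 to 0.257 over the 10 alternatives, and 31.3% of the 50-base stretches of its transcript also occur in other genes, so reads could have been split. PRIM1, the catalytic primase subunit, was at 49.2 and 44.8 CPM (-0.13), then 24.3 and 24.1 CPM (-0.01). The pair of primase subunits thus had unlike LNCaP ratios, but 28.8% of the stretches of PRIM1 are shared too. POLA1, the catalytic subunit of polymerase alpha, was at 67.5 and 60.3 CPM (-0.16), then 31.8 and 23.4 CPM (-0.43). POLA2, its partner, was at 56.7 and 49.4 CPM (-0.19), then 31.4 and 22.8 CPM (-0.44), and 55.2% of its stretches are shared with another annotated gene. POLE2, an accessory subunit of polymerase epsilon and the least abundant member, was at 17.0 and 14.2 CPM (-0.25), then 5.97 and 4.32 CPM (-0.39). The remaining 3 belong to the copying polymerases delta and epsilon. POLD1 was at 74.6 and 78.9 CPM (0.08), then 91.8 and 86.7 CPM (-0.08), the highest mean of the group. POLE was at 118 and 120.1 CPM (0.03), then 62.5 and 58.0 CPM (-0.11). POLD3 was at 33.5 and 32.7 CPM (-0.03), then 19.9 and 19.1 CPM (-0.06). For these 3 the C4-2B ENZR counting intervals all reached 0.

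PCNA, the clamp that holds polymerases on DNA and recruits many other replication proteins, was the member with the lowest ratio in each line. It was at 183 CPM in the C4-2B ENZR control and 108 CPM in the knockdown, a ratio of -0.76 (counting interval -0.84 to -0.70). In LNCaP it was at 83.8 and 40.7 CPM, a ratio of -1.03 (interval -1.12 to -0.97). Over both lines it fell by 0.89 (SE 0.12, limma adjusted p = 2.12e-09), and it alone of the 44 passed in all 10 alternatives, with adjusted p from 3.38e-11 to 0.0364. Only 0.229% of its 50-base stretches occur in another gene. PCNA-AS1, a transcript annotated over the same locus, had 2.43 and 1.18 CPM (60 and 29 reads) for C4-2B ENZR, then 9.55 and 3.50 CPM (542 and 171 reads) for LNCaP. None of the sources says whether counting used the strand, so reads of PCNA and PCNA-AS1 cannot be told apart.

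The RFC clamp loader had ratios nearer 0 than PCNA. RFC5, a small loader subunit, had 87.3 and 74.0 CPM (C4-2B ENZR), then 39.0 and 26.2 CPM (LNCaP), and it fell by 0.40 (SE 0.13, limma adjusted p = 0.0384, but 0.0643 with edgeR and recomputed TMM, and 0.00408 to 0.255 over the alternatives). RFC2 was at 81.5 and 78.0 CPM (-0.06), then 52.0 and 40.0 CPM (-0.37). RFC3 was at 97.5 and 90.2 CPM (-0.11), then 75.2 and 59.0 CPM (-0.35). Both of these were lower in LNCaP by more than counting error. RFC4 was at 76.7 and 77.6 CPM (0.02), then 44.7 and 39.1 CPM (-0.19), with a mean of -0.09 (SE 0.13, limma adjusted p = 0.779). RFC5 overlaps WSB2 on the opposite strand and RFC4 overlaps EIF4A2 likewise, and both of those neighbours had higher CPM in the LNCaP knockdown (ratios 0.52 and 0.50).

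Of the genes for binding and joining strands, FEN1, the nuclease that trims the flap ahead of ligation, had 173 and 134 CPM (C4-2B ENZR), then 73.1 and 52.6 CPM (LNCaP). It fell by 0.41 (SE 0.12, limma adjusted p = 0.0232, 0.000667 to 0.205 over the alternatives). Its exons overlap those of FADS2 and TMEM258, as those of MCM7 overlap AP4M1, so some reads could have been assigned either way. LIG1, the ligase that acts next, was at 44.5 and 40.0 CPM (-0.15), then 32.6 and 27.2 CPM (-0.25). RPA2, a subunit of the protein that coats unwound DNA, was at 85.0 and 71.5 CPM (-0.25), then 38.7 and 34.3 CPM (-0.17). RPA3, the smallest subunit of the same complex, was at 36.4 and 38.9 CPM (0.09), then 31.0 and 28.0 CPM (-0.14), with a mean of -0.02 (SE 0.13, limma adjusted p = 0.952). The group's medians were -0.20 for C4-2B ENZR and -0.21 for LNCaP as deposited, and -0.19 and -0.35 centred.

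Genes of nucleotide supply had medians of -0.28 in C4-2B ENZR and -0.22 in LNCaP as deposited, and -0.28 and -0.35 centred. Centred, TYMS was at -0.36 and -0.47 and RRM1 at -0.19 and -0.24. None of the 4 passed the limma test. TYMS, which makes thymidylate, was at 149.6 and 115 CPM (-0.37), then 112 and 88.4 CPM (-0.33), a mean of -0.35 (SE 0.12, limma adjusted p = 0.0665). It passed edgeR with recomputed TMM (adjusted p = 0.0422). TYMS overlaps ENOSF1 on the opposite strand, and 55.1% of its 50-base stretches are shared, 51.2% with ENOSF1, so reads could have been split. ENOSF1 was at 24.0 and 30.1 CPM and then 31.7 and 36.5 CPM. RRM2, the regulated subunit of ribonucleotide reductase, was the least alike between the lines of the 4. It had 192 and 141 CPM (-0.44) for C4-2B ENZR, then 121 and 123 CPM (0.02, interval -0.03 to 0.07) for LNCaP, where its centred ratio was -0.11. Of its stretches, 31.3% are shared with other annotated genes. RRM1, the other reductase subunit, was at 282 and 247 CPM (-0.19), then 173 and 161 CPM (-0.11), the highest mean of the group at -0.15 (SE 0.13, limma adjusted p = 0.585). TK1, the kinase that salvages thymidine, was at 218 and 204 CPM (-0.09), then 172 and 137 CPM (-0.33).

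The 4 genes of S-phase entry did not move together. UHRF1, an E2F target that brings the maintenance methyltransferase to newly copied DNA, had 96.3 and 70.2 CPM (C4-2B ENZR), then 64.2 and 45.5 CPM (LNCaP). It fell by 0.47 (SE 0.12, limma adjusted p = 0.00747, 0.000231 to 0.156 over the alternatives), and 33.7% of its stretches are shared with another annotated gene. E2F1, the transcription factor whose promoter is printed above, was at 102 and 101 CPM (-0.02), then 70.1 and 67.3 CPM (-0.06). Both of its counting intervals reached 0, but its centred LNCaP ratio was -0.19. CCNE2, a cyclin that activates CDK2 at the start of S phase, had 59.1 and 40.2 CPM (-0.55) for C4-2B ENZR, then 10.9 and 11.5 CPM (0.07, interval -0.10 to 0.24) for LNCaP, where its centred ratio was -0.07. Its transcript overlaps INTS8 on the opposite strand, and 48.2% of its stretches are shared. CCNE1, the other E cyclin, was at 24.3 and 24.7 CPM (0.02), then 19.5 and 23.6 CPM (0.26, interval 0.16 to 0.40), with a mean of 0.14 (SE 0.14, limma adjusted p = 0.64).

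**Figure D5:**
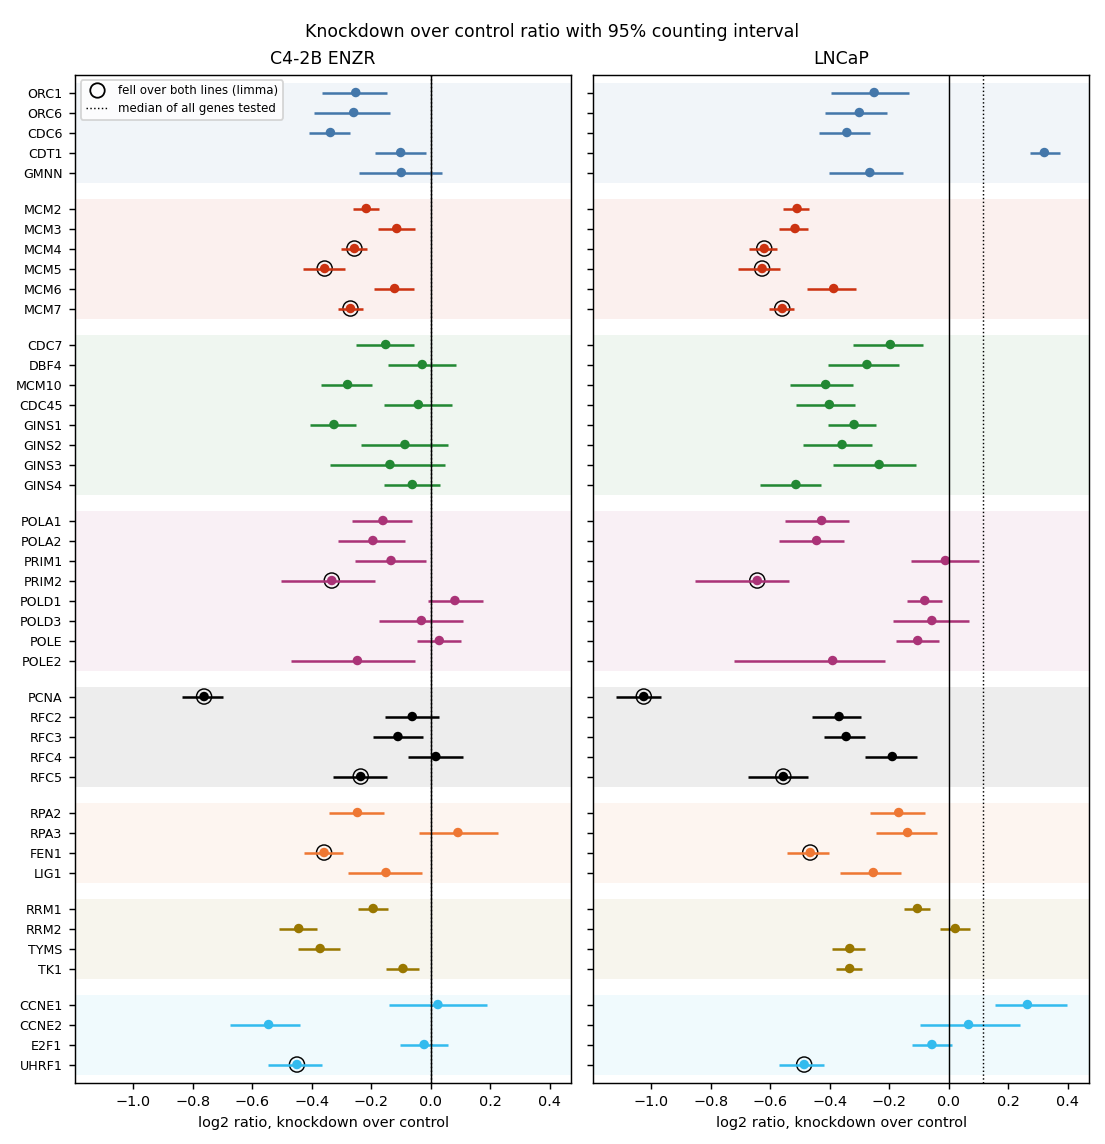
Log2 ratio of knockdown over control (horizontal) for each of the 44 replication genes (vertical, grouped by role) in C4-2B ENZR and LNCaP, with bars for the exact 95% counting interval and dotted lines at the median of all genes tested (0.00, on the zero line, and 0.11). All 6 MCM subunits lie between -0.39 and -0.63 in LNCaP, and CDT1 lies at 0.32.

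Across the 44 members the ratios of the lines were related loosely, with Pearson r = 0.457 and Spearman rho = 0.410, beside 0.401 and 0.417 over all 13114 genes. Genes are not independent replicates and each line's points share 2 libraries, so these are descriptions. The LNCaP ratio was below the C4-2B ENZR ratio for 34 of 44 members, where this held for 33.3% of all genes, and for 40 of 44 after centring, where it held for 55.9%. The difference was not tested.

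A further 54 replication genes outside the 44 had medians of -0.13 and -0.19. Of these, 2 (3.7%) fell by limma, beside 1.49% of all genes, and none rose, beside 4.22%. Ratios were below 0 for 46 of them in C4-2B ENZR and 44 in LNCaP, beside 49.6% and 33.4% of all genes. At an unadjusted limma p under 0.05, 12 (22.2%) were lower, beside 5.39% of all genes, and 3 (5.56%) were higher, beside 13.8%. With edgeR and recomputed TMM, and with DESeq2, none was called higher. CLSPN, which relays the checkpoint signal at stalled forks, had 93.3 and 66.4 CPM (C4-2B ENZR), then 28.97 and 19.6 CPM (LNCaP), and it fell by 0.51 (SE 0.13, limma adjusted p = 0.0040). ASF1B, a histone chaperone, was at 54.5 and 43.4 CPM, then at 52.5 and 36.9 CPM, and it fell by 0.41 (SE 0.13, limma adjusted p = 0.0319). In origin recognition and licensing all 8 genes were below 0 in C4-2B ENZR and 6 in LNCaP, from FBXO5 at a mean of -0.24 to MCMBP at -0.04. In firing and fork protection all 9 were below 0 in both lines, from CLSPN to TOPBP1 at -0.06. Further polymerase, loader and binding subunits ran from DNA2 at -0.28 to POLD4, the small subunit of polymerase delta, at 0.38. POLD4 was at 26.2 and 33.9 CPM, then 52.8 and 69.6 CPM, with a limma adjusted p of 0.0573. Chromatin assembly genes ran from HELLS at -0.43 (limma adjusted p = 0.0613) to ASF1A at 0.05. Further nucleotide genes ran from DTYMK at -0.30 to RRM2B, the p53-responsive reductase subunit, at 0.32, and RRM2B had 84.0 and 85.6 CPM (C4-2B ENZR), then 43.9 and 68.0 CPM (LNCaP). In the E2F and RB family the ends were RBL1 at -0.33 and RBL2 at 0.31, a pair of RB-related repressors. RBL1 was at 50.0 and 43.5 CPM, then 21.8 and 15.6 CPM, and RBL2 was at 87.0 and 96.7 CPM, then 155 and 214 CPM.

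Most of the histone genes checked went apart between the lines. RNA of this class mostly lacks a poly(A) tail, but whether that holds for these 7 was not known. Their ratios are not read as a measure of replication. The 7 genes summed to 98.2 and 72.6 CPM in C4-2B ENZR. All 7 were lower there in the knockdown (median ratio -0.30), beside 49.6% of all genes. The counting intervals of HIST1H1C, HIST1H2BC, HIST1H2BD and HIST1H4H reached 0 in that line. In LNCaP the 7 genes summed to 195 and 331 CPM. There 6 of 7 were higher (median 0.63, that of HIST1H1C, which was 0.50 centred) and 1 was lower. Of all genes 33.4% were lower there, so most genes were higher in LNCaP as deposited. HIST1H2BD was called higher over both lines (mean 0.76, SE 0.16, limma adjusted p = 0.000468), beside 4.22% of all genes. It passed 6 of 10 alternatives (adjusted p from 1.06e-05 to 0.804), and its ratios were -0.19 in C4-2B ENZR and 1.70 in LNCaP. Histone levels also move with how RNA was prepared, and their part in the members' ratios was not tested.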

How the data were processed

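RNA was measured as single reads of 50 nt from total RNA, per the labels' protocols. The hg19 build is named in the submitters' processing notes, along with RSEM 1.2.15, Bowtie2 2.1.0 and edgeR. The authors deposited a table per line of TMM-scaled CPM. The deposited LNCaP values were handled as a signal on the CPM scale, because 1 column summed to 1064501. Values were whole multiples of 1 read in 100% of cases (tolerance 0.01 read), which recovered read counts for edgeR and DESeq2. The deposited scaling differed from recomputed TMM in LNCaP (log2 0.20 and 0.08, knockdown over control) but not in C4-2B ENZR (0.02 in both).

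Ratios were log2 of CPM plus 1, which understates changes of low genes. limma 3.58.1 (R 4.3.3, trended prior) tested the mean of both lines' ratios over genes with a mean of at least 1 CPM in both tables. edgeR 4.0.16 on recovered reads called 128 genes lower and 175 higher, and DESeq2 1.42.0 called 90 and 131. Other alternatives were pseudocounts of 0.1 and 5, a minimum of 5 CPM, no filter, centring, equal library sums and no prior trend. Counting intervals were exact conditional (Clopper-Pearson). The limma and edgeR fits, but not DESeq2, were run on simulated counts with known changes, and those results are not given here. P-values rest on how far the ratios of the lines differ, pooled mostly over genes. No group has replicate libraries whose spread they could measure.

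Members and lists were chosen with earlier results of these data known. Every member is described; full statistics are given for members that passed limma and for the lowest and highest mean of each role, and the further replication genes named are those that passed or lie at the ends of their lists. Genes overlapping a member, transcript lengths and shared 50-base stretches came from GENCODE 29 and promoters from RefSeq GRCh38.p14, another build than hg19. More than 5% of the stretches were shared for 16 of the 44 members. Among these were GINS4 (30.7%) and DBF4 (20.2%), for which no share is given above. Proteins were not used here. The tables hold 28 date-like symbols, none named here. One item of a marker list is not reported here.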

Additional observations from a re-analysis of the deposited data

Results flagged for a closer look

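CDT1, the helicase loader, and SLBP, which binds the stem-loop of histone messages, had ratios of opposite sign in the lines, each with a counting interval away from 0. The log2 ratio of CDT1 was -0.10 for C4-2B ENZR against 0.32 for LNCaP, where centring left 0.19. SLBP had 92.8 and 84.8 CPM for control and knockdown of C4-2B ENZR (-0.13), against 64.2 and 73.5 CPM for LNCaP (0.19), where centring left 0.06. The differences between the lines were not tested, since each line has 1 library a group.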

How the results depend on the processing

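The count of 8 members that fell became 1 with no filter on low values (0.0289% of all genes fell), 18 with ratios centred on the median ratio (4.14%), 22 with libraries rescaled to the same sum (4.98%), 3 with a prior without trend (0.991%) and 5 with edgeR and recomputed TMM (0.976%). It was 8, 7 and 8 with pseudocounts of 0.1 and 5 and a minimum of 5 CPM (1.58%, 1.34% and 1.56%), 6 with DESeq2 (0.686%), which gave no adjusted p for POLE2, and 7 with edgeR on the deposited scaling (1.57%), an alternative chosen after seeing the data. The 2 further replication genes that fell became 0 with no filter, 11 centred, 12 with the same sum, 1 without trend and 1 with DESeq2, and the count that rose became 1 (POLD4) with edgeR on the deposited scaling, where 4.51% of all genes rose. Members lower past 1.3-fold numbered 4 in C4-2B ENZR, but 12 at 1.2-fold (8.48% of all genes) and 1 at 1.5-fold (0.963%). In LNCaP they numbered 17, but 29 centred (10.7%), 32 with the same sum (13.4%), 27 at 1.2-fold (9.67%) and 4 at 1.5-fold (1.57%), and 2 were higher at 1.2-fold (CDT1 and CCNE1), beside 28.3%. Under the 4 scaling and pseudocount settings no called member's mean ratio changed sign. These settings could not have raised a called mean above 0, so this is no check of the calls. The mean of CDT1, not called, went from 0.11 to -0.00014 with the same sum. Leaving out a line leaves 1 ratio and no test. No paired analysis was possible because each group has 1 library and so no replicate number to block on, beyond the pairing of control and knockdown within a line that the limma test already uses.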

Other observations

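Other promoter elements tied to the cell cycle were searched in the same windows. The letters CCAAT, the core bound by NF-Y, were found on either strand for 21 of 37 members (56.8%), where 39.7% of 27305 genes held them. Members with CCAAT had median log2 ratios of -0.19 in C4-2B ENZR and -0.34 in LNCaP, and those without had -0.14 and -0.30. The letters TTTGAA, the core of the CHR element of genes that peak in G2 and mitosis, were found for 2 of 37 members (DBF4 and RRM1, 5.41%), where 18.2% of genes held them. No test was made of these shares.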
